A study of Homo sapiens with 6 samples.

Results

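Integrins are cell-surface adhesion receptors made of an alpha and a beta subunit, and the genes described here encode 10 of these subunits: ITGAV, ITGA1, ITGA2, ITGA4, ITGA5 and ITGA10 on the alpha side and ITGB1, ITGB3, ITGB5 and ITGB8 on the beta side. They were taken by gene symbol, as a list drawn up with earlier results of these data known, and all 10 were found among the 18539 genes of the deposited table. The libraries came from A375, a human malignant melanoma cell line grown in medium with 10% fetal bovine serum. A375 cells were infected with lentivirus for a short hairpin RNA against MMP9 (shMMP9, 3 libraries) or for a control hairpin (shControl, 3 libraries), with polybrene at 8 µg/ml, and then selected with puromycin at 2 µg/ml for 2 weeks. MMP9 is a secreted gelatinase, and the comparison asks which transcripts of the melanoma cells change once its transcript is lowered. A single MMP9 hairpin was used, so the lowering of MMP9 and any other effect of that hairpin cannot be told apart.

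The alpha subunit largely sets what an integrin binds, and the beta tail inside the cell binds talin and kindlin, which switch the receptor on and tie it to actin. ITGAV pairs with the products of ITGB1, ITGB3, ITGB5 and ITGB8, and these pairs, like that of ITGA5 with ITGB1, recognise the Arg-Gly-Asp (RGD) motif of fibronectin, vitronectin and other matrix proteins. ITGA1, ITGA2 and ITGA10 pair with ITGB1 to bind collagen, while ITGA4 with ITGB1 binds the endothelial ligand VCAM1 and the Leu-Asp-Val motif of fibronectin. In melanoma the pair of ITGAV and ITGB3 is best known as a mark of the step from flat to invasive growth.

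Of the 10 integrin genes, 9 rose and 1, ITGA4, fell in shMMP9 at an adjusted p under 0.05 (limma). Among all 17194 genes tested, 57.5% passed by the same rule, 25.0% as rises and 32.5% as falls. ITGA2, ITGB3 and ITGB8 were at least 2-fold higher in shMMP9, against 3.22% of all genes tested, and none was 2-fold lower, against 4.96% of all genes tested. The median log2 fold change of the 10 genes was 0.59, beside -0.05 over all genes tested. For each of the 10 genes the shMMP9 and shControl libraries did not overlap, which was also so for 62.7% of all genes tested. In 9 of them shMMP9 was the higher group, beside 27.6% of all genes tested. In bulk RNA such a difference can come from more cells with a transcript or from more of it per cell, which cannot be told apart.

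The levels given are scaled gene counts: in the authors' table every library has the same upper quartile. Means stand with their SD over the 3 libraries of a group (n = 3). A log2 fold change is the shMMP9 mean of log2(scaled count + 1) less that of shControl, a scale on which weak genes change less than they do in proportion. Listed genes held an estimated 21854123 to 28005552 reads per library, and the 10 integrin genes held between 88 estimated reads (ITGA10) and 9883 (ITGB1) in a library. No label says that the replicates were separate cultures, so p-values measure the spread between these libraries, which may be technical. MMP9 itself stood at 16.2, 14.6 and 17.1 in shMMP9 replicates 1 to 3, against 26.1, 24.3 and 28.7 in shControl replicates 1 to 3, and fell by 0.69 on the log2 scale (adjusted p = 1.25e-05, limma). Its mean in shMMP9 was 0.605 times that in shControl, so the knockdown was partial at the transcript level. Of the melanoma markers examined 8 of 10 were listed, and their summed level was 1338 to 1416 in shMMP9 and 651 to 670.2 in shControl. SOX10 made up most of that sum, with means of 785 in shMMP9 and 378 in shControl. Of the 7 melanoma markers tested 4 rose, 1 (MITF) fell and 2 did not pass. Beside these and the other marker counts, 25.0% of all genes tested rose and 32.5% fell. TYR and DCT, which encode melanin enzymes, were not among the listed genes. Every listed gene held at least 1 estimated read in each library. A gene that is not listed may therefore still have had reads in some libraries or in 1 group. Summed levels were 27.7 to 30.5 in shMMP9 and 51.8 to 56.3 in shControl for fibroblast markers (8 of 8 listed), and 22.1 to 25.7 in shMMP9 and 55.9 to 64.8 in shControl for endothelial ones (6 of 8). The endothelial sum rests on TIE1, without which it was 18.2 to 20.6 in shMMP9 and 9.29 to 11.5 in shControl, and of its 6 tested genes 2 rose and 2 fell. Summed levels were 127 to 136 in shMMP9 and 70.1 to 81.8 in shControl for keratinocyte markers (4 of 8), 98 to 101 in shMMP9 and 114 to 135 in shControl for leukocyte ones (3 of 8), and at most 2.71 for platelet ones (2 of 6). The keratinocyte sum was mostly KRT10 (112 in shMMP9, 71.6 in shControl). The leukocyte sum was mostly CD68 (92.4 in shMMP9, 121 in shControl), while LYZ rose (6.83 in shMMP9, 2.20 in shControl). Of 6 tested fibroblast markers 1 rose and 5 fell. PTPRC, the common leukocyte antigen, and the platelet genes PF4 and PPBP were not listed. Mitochondrially encoded genes held 0.62 to 0.71% of the summed level in shMMP9 and 1.64 to 1.79% in shControl. What part these markers and the mitochondrial share have in the integrin values was not tested.

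Promoters are shown for 4 genes on which the results turn: ITGA2 and ITGB8, which rose most among the genes with a RefSeq promoter entry, ITGA4, the gene that fell, and ITGA5, the most abundant of the 6 alpha transcripts per length. Each runs 5′ to 3′ from 250 bases before to 50 bases after the gene's start in RefSeq on GRCh38.p14, and is at chr5:52989102-52989401 (plus strand) for ITGA2, chr7:20330650-20330949 (plus) for ITGB8, chr2:181457136-181457435 (plus) for ITGA4 and chr12:54419217-54419516 (minus) for ITGA5. Capitals mark matches, on either strand, to the core letters bound by AP-1 (TGANTCA), TEAD (GGAATG), SP1 (GGGCGG) or ETS factors (CCGGAA).
ITGA2: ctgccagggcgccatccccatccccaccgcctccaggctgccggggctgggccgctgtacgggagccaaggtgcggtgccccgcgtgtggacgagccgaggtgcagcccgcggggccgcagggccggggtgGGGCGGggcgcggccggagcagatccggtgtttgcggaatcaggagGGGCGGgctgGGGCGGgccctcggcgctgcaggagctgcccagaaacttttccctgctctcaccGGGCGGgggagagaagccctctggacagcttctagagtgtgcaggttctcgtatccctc
ITGB8: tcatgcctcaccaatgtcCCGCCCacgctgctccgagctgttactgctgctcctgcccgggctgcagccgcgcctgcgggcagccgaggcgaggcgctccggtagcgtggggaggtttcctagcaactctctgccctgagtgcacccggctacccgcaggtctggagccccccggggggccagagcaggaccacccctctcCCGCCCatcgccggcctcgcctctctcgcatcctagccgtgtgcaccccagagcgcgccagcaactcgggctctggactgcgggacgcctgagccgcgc
ITGA4: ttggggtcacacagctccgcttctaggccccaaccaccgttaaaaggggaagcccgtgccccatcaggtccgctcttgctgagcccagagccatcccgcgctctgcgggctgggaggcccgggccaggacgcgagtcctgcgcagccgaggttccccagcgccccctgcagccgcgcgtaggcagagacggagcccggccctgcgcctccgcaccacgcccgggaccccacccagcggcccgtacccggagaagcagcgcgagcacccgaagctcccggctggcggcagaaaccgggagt
ITGA5: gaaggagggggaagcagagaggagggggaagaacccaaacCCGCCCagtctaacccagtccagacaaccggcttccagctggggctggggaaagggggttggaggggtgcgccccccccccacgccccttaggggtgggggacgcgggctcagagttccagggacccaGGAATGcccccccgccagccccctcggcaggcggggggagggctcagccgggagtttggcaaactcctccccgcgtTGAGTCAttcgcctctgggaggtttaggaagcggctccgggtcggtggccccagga

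The ITGA2 promoter held 4 SP1 matches and that of ITGB8 held 2. The ITGA4 promoter held none of the motifs searched, and that of ITGA5 held 1 match each for AP-1, TEAD and SP1. RefSeq entries were found for 9 of the 10 genes, with 13 start sites between them. An SP1 match lay in 7 of these 13 windows, beside 45.0% of all 35116 promoters. The corresponding counts were 1 of 13 beside 7.71% for AP-1, 3 of 13 beside 14% for TEAD and 2 of 13 beside 17.2% for ETS. GC content was 72.7% for ITGA2, 71.7% for ITGB8, 72.3% for ITGA4 and 69.3% for ITGA5, beside a median of 58.7% over all promoters. Over the other windows it ran lower in part, down to 48.7% for ITGA10 and 40.7% for a second start site of ITGB1. A match is only a match of letters, and none was tested for binding.

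ITGB3, which completes the vitronectin receptor with ITGAV, had the largest change among the 4 beta genes of the set. It lies at chr17:47253846-47311816 on the plus strand of GRCh38 (ENSG00000259207.7). ITGB3 stood at 267, 269 and 261 in shMMP9 replicates 1 to 3, against 109.6, 113 and 120.3 in shControl replicates 1 to 3. The lowest shMMP9 library was more than 2-fold above the highest shControl library, and the shMMP9 libraries lay close together. The means of 266 ± 3.95 in shMMP9 and 114 ± 5.45 in shControl gave a ratio of 2.32 and a log2 fold change of 1.21 (SE 0.0485, 95% interval 1.10 to 1.31, adjusted p = 1.98e-10, limma). A higher log2 fold change was seen in 2.25% of all genes tested. ITGB3 shares 2266 exon bases with the read-through gene AC068234.1 on the same strand, so reads could be split between them, but that gene was listed at a mean of only 0.133 in shMMP9 and 0.638 in shControl.

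ITGB8, whose product pairs with ITGAV and is known for activating latent TGF-beta, rose as well. The gene lies at chr7:20330702-20415754 on the plus strand (ENSG00000105855.9). ITGB8 stood at 111, 109.8 and 108 in shMMP9, against 56.3, 43.9 and 50.3 in shControl. The shMMP9 libraries spread far less than the shControl libraries, with an SD of 1.23 in shMMP9 and 6.24 in shControl, yet the highest shControl value was well under the lowest of shMMP9. ITGB8 had a log2 fold change of 1.12 (SE 0.0737, 95% interval 0.96 to 1.28, adjusted p = 3.01e-08, limma) and a ratio of means of 2.18. It shares 98 exon bases with the antisense gene AC004130.1, listed at a mean of 0.674 in shMMP9 and 0.400 in shControl, and without a known strand setting reads there could belong to either.

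ITGB1, the common partner of most alpha subunits, and ITGB5, a second vitronectin-binding partner of ITGAV, rose by much less. ITGB1 (chr10:32900319-33005792, minus strand) stood at 332, 332 and 317 in shMMP9 and at 295, 271 and 278 in shControl, with a log2 fold change of 0.22 (95% interval 0.11 to 0.32, adjusted p = 0.0019, limma). ITGB5 (chr3:124761948-124901418, minus strand) stood at 216, 210.3 and 214 in shMMP9 and at 164, 189 and 192 in shControl, with a log2 fold change of 0.24 (95% interval 0.11 to 0.36, adjusted p = 0.00384, limma). In both genes the groups were close but did not overlap, and the lowest ITGB5 value was that of shControl replicate 1. Without that library the ITGB5 change was 0.16. Rises larger than these were seen in 25.2% of all genes tested for ITGB1 and in 23.8% for ITGB5.

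**Figure D1:**
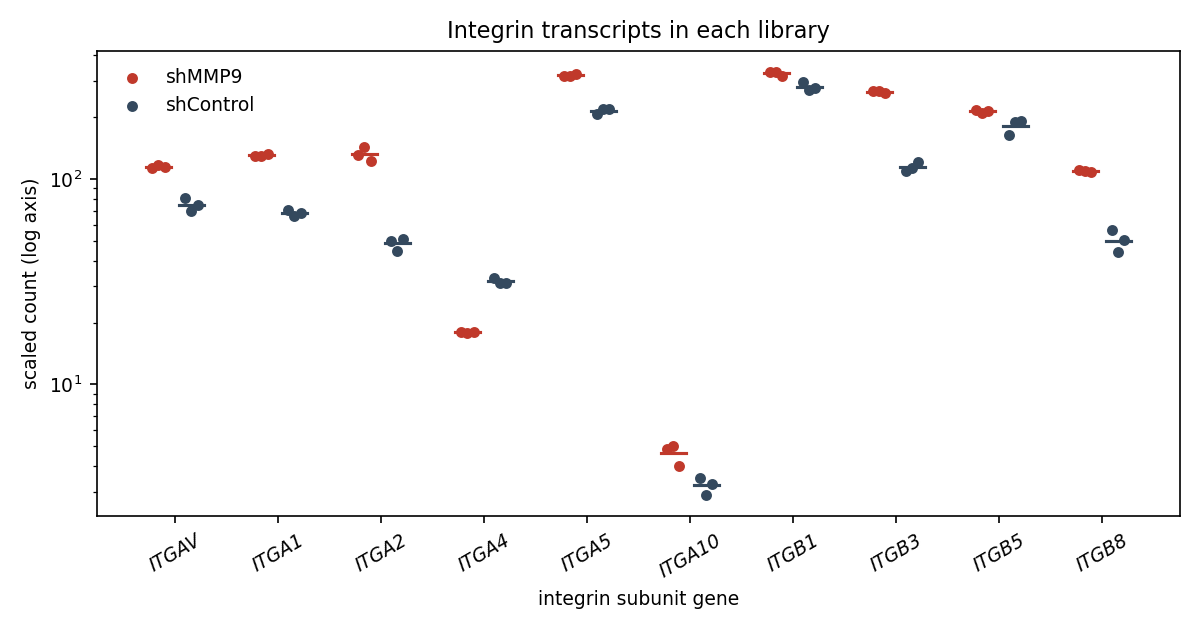
Scaled counts (log axis) of the 10 integrin genes in each library, with shMMP9 left of shControl for each gene; points are libraries and bars are group means of 3. The groups are apart for every gene, and only ITGA4 is lower in shMMP9 (17.8 to 18, against 31.0 to 33.0 in shControl).

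Among the 6 alpha genes of the set the largest rise was that of ITGA2, the collagen receptor subunit of platelets and epithelia, at chr5:52989326-53094779 on the plus strand (ENSG00000164171.10). ITGA2 stood at 131, 143 and 123 in shMMP9, against 49.8, 44.8 and 51.3 in shControl. The spread within each group was small beside the gap between them. ITGA2 averaged 132 ± 9.97 in shMMP9 and 48.6 ± 3.41 in shControl, a ratio of 2.72 and a log2 fold change of 1.42 (SE 0.066, 95% interval 1.28 to 1.57, adjusted p = 8.36e-10, limma). A higher log2 fold change was seen in 1.47% of all genes tested.

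ITGA1, which favours basement membrane collagen, lies just before ITGA2 on chromosome 5, at 52787896 to 52959210 on the same strand, with 30115 bases between the genes. ITGA1 stood at 129, 129.8 and 132 in shMMP9, against 71.0, 65.7 and 68.4 in shControl, a log2 fold change of 0.92 (SE 0.0487, 95% interval 0.81 to 1.03, adjusted p = 3.28e-09, limma). The neighbouring collagen receptor genes therefore rose together, ITGA2 by more. PELO, a ribosome rescue factor gene inside ITGA1, shares 475 exon bases with it on the same strand and rose by 0.50 on the log2 scale (adjusted p = 2.64e-06, limma), so reads of the pair could be split and the ITGA1 value is uncertain to that extent. Within 500 kb of ITGA2, 6 other genes were tested, of which 4 rose and 2 fell. Around the other genes the windows held between 2 and 26 tested neighbours, with medians from -0.16 (ITGB8) to 0.64 (ITGB1).

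ITGA10, a collagen receptor subunit known from cartilage, was weakly expressed, at 4.84, 5 and 3.99 in shMMP9 and 3.49, 2.89 and 3.29 in shControl (chr1:145891208-145910189, minus strand). Its libraries held 144, 126 and 108 estimated reads in shMMP9 and 98, 89 and 88 in shControl. ITGA10 had a log2 fold change of 0.41 (SE 0.125, 95% interval 0.14 to 0.68, adjusted p = 0.0132, limma). Leaving out shMMP9 replicate 1 ended the call (adjusted p = 0.0501), as did leaving out shMMP9 replicate 2 (adjusted p = 0.0511) and shControl replicate 2 (adjusted p = 0.0532). Its adjusted p ran from 0.0066 to 0.0532 over the alternatives tried.

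ITGA5, the fibronectin receptor subunit, and ITGAV, the shared subunit of the vitronectin receptors, rose by similar amounts. ITGA5 (chr12:54395261-54419460, minus strand) stood at 316, 318 and 326 in shMMP9, against 206, 220.2 and 219 in shControl, a log2 fold change of 0.57 (95% interval 0.47 to 0.67, adjusted p = 2.45e-07, limma). ITGAV (chr2:186590065-186680901, plus strand) stood at 113, 117 and 114 in shMMP9, against 80.5, 69.8 and 75 in shControl, a log2 fold change of 0.61 (95% interval 0.49 to 0.73, adjusted p = 8.92e-07, limma). The ratio of means, shMMP9 over shControl, was 1.49 for ITGA5 and 1.53 for ITGAV.

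ITGA4, the VCAM1 receptor subunit that also serves in leukocyte homing, went the other way. It lies at chr2:181457202-181536187 on the plus strand, on the same chromosome as ITGAV. ITGA4 stood at 18, 17.8 and 17.9 in shMMP9, against 33.0, 31.1 and 31.0 in shControl. The shMMP9 libraries were almost identical, and every one was far below the lowest shControl library. ITGA4 fell by 0.79 on the log2 scale (SE 0.0656, 95% interval -0.93 to -0.65, adjusted p = 2.95e-07, limma), and its mean in shMMP9 was 0.565 times that in shControl. VCAM1, its endothelial ligand, was not among the listed genes, so its level in either group is not known.

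Levels of different genes can be set side by side only per length, here as scaled count per kilobase of annotated exon (GENCODE release 29). The order of the genes by this measure depends on the length used. In shMMP9 ITGB3 was highest, at 60.5 ± 0.899 per kilobase, above ITGB1 at 54.4 ± 1.42, ITGA5 at 42.2 ± 0.680 and ITGB5 at 33.1 ± 0.473. There followed ITGA2, ITGAV, ITGB8, ITGA1, ITGA4 and ITGA10, and no neighbours in this order overlapped over the 3 libraries. In shControl the order was ITGB1, ITGA5, ITGB5, ITGB3, ITGAV, ITGA2, ITGA4, ITGA1, ITGB8 and ITGA10, where the ranges of ITGA5 and ITGB5, of ITGB5 and ITGB3, and of ITGA1 and ITGB8 overlapped. Per kilobase of the longest coding transcript, an order computed after seeing the data, ITGB3 stood at 66.5 ± 0.988 in shMMP9, below both ITGB1 at 86.4 ± 2.25 and ITGA5 at 72 ± 1.16, and in shControl it stood at 28.6 ± 1.36, below ITGB1, ITGA5 and ITGB5 with no overlap. By that length ITGA2, at 16.8 ± 1.27 in shMMP9, overlapped ITGAV, at 16.3 ± 0.338, while by exon length it was above ITGAV in shMMP9 (16.7 ± 1.26 against 14 ± 0.289). ITGA2 was below ITGAV in shControl by both lengths, and ITGA10 was last in both groups by both.

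The mix of beta subunit transcripts shifted with these changes. ITGB3 made up 38.8, 39.2 and 39.0% of the summed per-kilobase level of ITGB1, ITGB3, ITGB5 and ITGB8 in shMMP9, against 24.2, 25.1 and 25.7% in shControl. ITGB1 made up 35.0 ± 0.401% in shMMP9 and 44.9 ± 2.34% in shControl, and ITGB5 21.3 ± 0.446% in shMMP9 and 27.0 ± 2.06% in shControl. ITGB8 stayed a small part, at 4.66 ± 0.0205% in shMMP9 and 3.18 ± 0.403% in shControl. So ITGB1 and ITGB5 lost share although their levels rose, since ITGB3 rose by more. The groups were apart for each of these 4 shares, at the smallest p that 3 libraries against 3 allow (two-sided exact permutation test, p = 0.1). After adjustment over the 10 shares compared this was 0.125, so no share could pass at 0.05 in this test. The summed level of the 4 beta genes was 155 ± 2.32 per kilobase in shMMP9 and 104 ± 2.15 in shControl.

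Among the alpha genes, ITGA5 held most of the summed per-kilobase level, with 50.9 ± 1.17% in shMMP9 and 54.7 ± 2.17% in shControl. ITGA2 held 20.1 ± 1.27% in shMMP9, against 11.8 ± 0.675% in shControl, and ITGA4 held 2.73 ± 0.0542% in shMMP9, against 7.73 ± 0.297% in shControl. ITGAV held 16.9 ± 0.105% in shMMP9 and 17.6 ± 1.17% in shControl, a difference of -0.77 points that is within the spread of the shControl libraries (exact permutation test, two-sided p = 0.4). The largest shifts were therefore the gain of ITGA2 and the loss of ITGA4. Of the 10 shares compared, those of ITGAV and ITGA10 (p = 0.3) were the only ones above the smallest possible p of 0.1 in the exact permutation test.

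**Figure D2:**
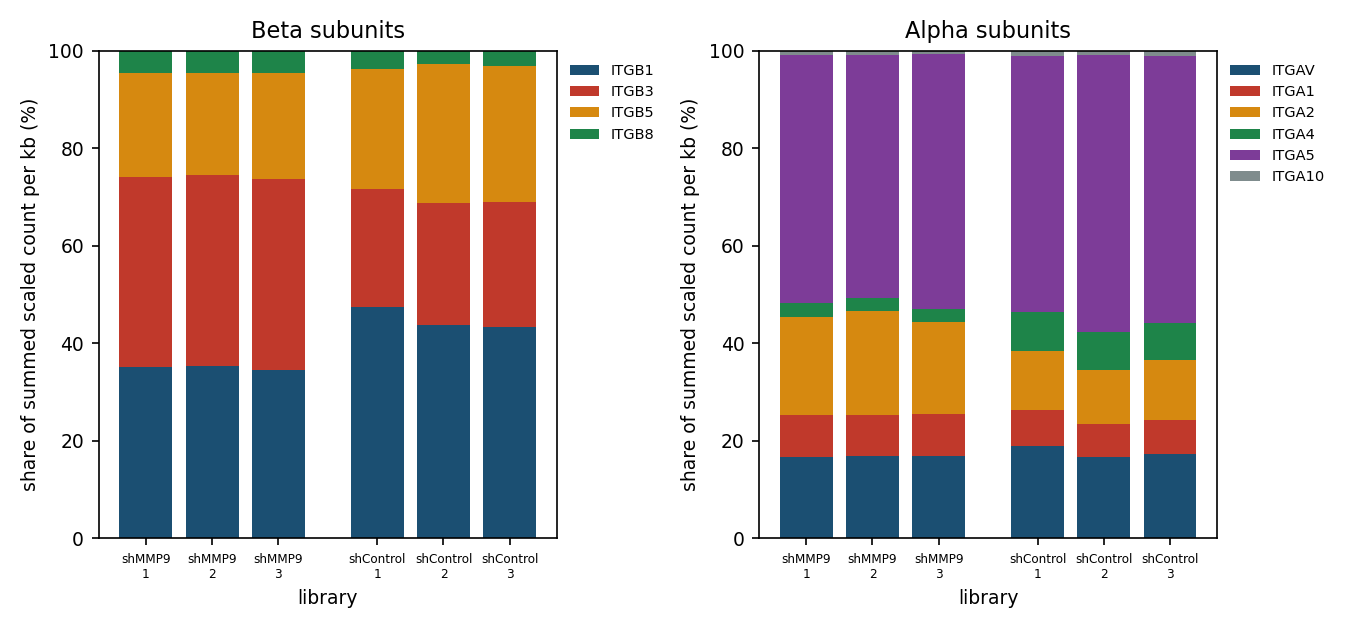
Share (%) of each gene in the summed scaled count per kilobase of the 4 beta genes (left) and the 6 alpha genes (right), 1 stacked bar per library, shMMP9 left of shControl. ITGB3 takes 38.8 to 39.2% of the beta sum in shMMP9, against 24.2 to 25.7% in shControl, and ITGA2 takes 18.8 to 21.4% of the alpha sum, against 11.1 to 12.3% in shControl.

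Ratios per kilobase were compared for 10 pairs of genes, 7 of them alpha and beta partners and 3 of like subunits. These ratios were not among the planned comparisons. They are built from the gene values given above and are not separate support. In all 10 the groups did not overlap and p was 0.1, also after adjustment over the 10 (two-sided exact permutation test). That is the smallest p that 3 libraries against 3 allow. How often ratios of other genes are apart was not computed. The ratio of ITGB3 to ITGB5 per kilobase was 1.81, 1.88 and 1.79 in shMMP9, against 0.982, 0.881 and 0.919 in shControl. Of these vitronectin-binding partners of ITGAV, ITGB3 was thus the higher in every shMMP9 library and ITGB5 in every shControl library, although their ranges overlapped across the shControl libraries. By the longest coding transcript the ratio was 1.36 ± 0.033 in shMMP9 and 0.692 ± 0.038 in shControl. The ITGAV transcript was below each of these partners in both groups, at 0.231 ± 0.0049 of ITGB3 in shMMP9 and 0.352 ± 0.036 in shControl, and at 0.422 ± 0.015 of ITGB5 in shMMP9 and 0.328 ± 0.051 in shControl. Relative to ITGB1, ITGA2 stood at 0.307 ± 0.017 in shMMP9 and 0.131 ± 0.0077 in shControl, and ITGA4 at 0.0417 ± 0.0012 in shMMP9 and 0.0858 ± 0.0014 in shControl. The ratio of ITGA5 to ITGA4, which bind different sites of fibronectin, was 18.6 ± 0.31 in shMMP9 and 7.1 ± 0.49 in shControl. All 11 listed alpha genes whose products can pair with ITGB1 together stood at 3.18 to 3.38 times ITGB1 in shMMP9, against 2.18 to 2.56 times in shControl. Their mean sum per kilobase was 179 in shMMP9 and 113 in shControl. ITGA6, which is outside the set, held 41.8 of it in shMMP9 and 13.2 in shControl. All the ratios given here are of transcripts per length, which do not give the number of receptors at the cell surface.

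The other integrin subunits moved in both directions. Of 16 such genes 12 were listed and 10 tested, and 3 of these rose and 5 fell, with a median log2 fold change of -0.47. Among all genes tested 25.0% rose and 32.5% fell. Of the genes that fell, ITGAX, ITGB2 and ITGB7 were weakly expressed, with group means of at most 6.19. The summed level of the 12 listed genes was higher in shMMP9 (806 to 834) than in shControl (556 to 646). ITGA3, the most abundant of them, stood at 501 ± 17.5 in shMMP9 and 422 ± 38.0 in shControl (log2 fold change 0.25, adjusted p = 0.00426, limma). ITGA6, a laminin receptor subunit, stood at 273 ± 16 in shMMP9 and 86.1 ± 5.99 in shControl (log2 fold change 1.65, adjusted p = 8.11e-11, limma). Its partner ITGB4, which anchors hemidesmosomes, stood at 9.75 ± 1.29 in shMMP9 and 50.4 ± 6.50 in shControl (log2 fold change -2.26, adjusted p = 6.9e-10, limma). ITGA7, a muscle laminin receptor gene, stood at 11.5 ± 0.581 in shMMP9 and 23.5 ± 1.41 in shControl, and the leukocyte gene ITGAX at 2.17 ± 0.791 in shMMP9 and 6.19 ± 0.594 in shControl, both of which passed as falls. ITGA11, also a collagen receptor subunit gene, did not pass. It stood at 2.54 ± 0.480 in shMMP9 and 2.86 ± 0.336 in shControl (log2 fold change -0.13, adjusted p = 0.433, limma). ITGA9 rose, from 3.66 ± 0.492 in shControl to 7.91 ± 1.51 in shMMP9 (log2 fold change 0.92, adjusted p = 8.85e-05, limma). The leukocyte genes ITGAL and ITGAM, ITGA8 and the epithelial gene ITGB6 were not listed, so their levels in either group are not known.

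**Figure D3:**
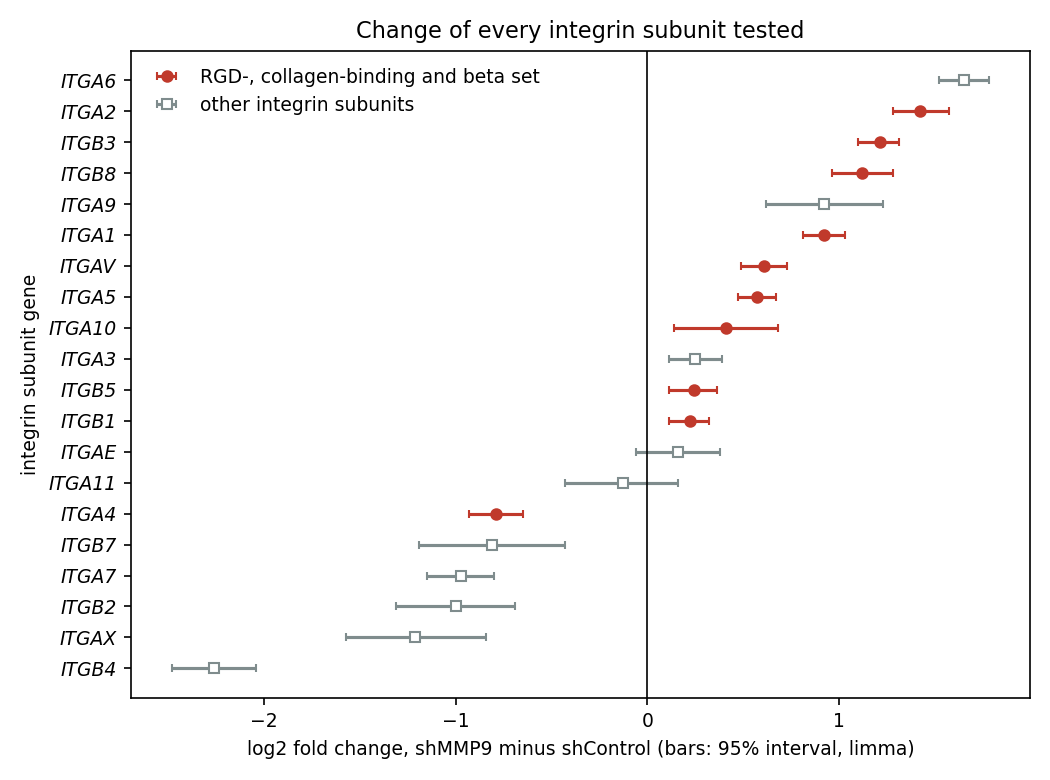
Log2 fold change (shMMP9 minus shControl, limma) with its 95% interval for each of the 20 integrin subunit genes tested; filled circles are the 10 genes described here and open squares the other 10. Of the 10 circles only ITGA4 (-0.79) lies left of 0, while the squares run from -2.26 (ITGB4) to 1.65 (ITGA6).

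Ligands moved in both directions. Of 23 tested genes for RGD, Leu-Asp-Val and related integrin ligands 7 rose and 11 fell, with a median log2 fold change of -0.15. Among all genes tested 25.0% rose and 32.5% fell, shares that also stand beside the counts of the lists that follow. The matricellular genes CYR61 and CTGF, whose proteins are bound by integrins, had log2 fold changes of -2.60 (adjusted p = 3.77e-13) and -1.83 (adjusted p = 3.14e-12, limma). CYR61 stood at 92.5 ± 5.06 in shMMP9 and 567 ± 7.88 in shControl. The osteopontin gene SPP1, a ligand of the ITGAV and ITGB3 pair, stood at 4.37 ± 0.673 in shMMP9 and 20.9 ± 0.837 in shControl (log2 fold change -2.04, adjusted p = 3.08e-09, limma), and L1CAM, an adhesion molecule with an RGD motif, had a log2 fold change of -1.35. These 4 genes fell and had the lowest adjusted p of their list, in which 7 other genes rose. Of 13 tested collagen genes 7 rose and 5 fell. COL9A3, a cartilage collagen gene, stood at 423 ± 18.3 in shMMP9 and 115 ± 8.43 in shControl, and COL6A1, of microfibrillar collagen, at 131 ± 0.714 in shMMP9 and 66.5 ± 2.10 in shControl. The fibrillar collagen genes COL5A1 and COL1A1 had log2 fold changes of -1.49 and -2.23. COL1A1 is also a fibroblast marker, and the summed fibroblast markers were lower in shMMP9, as given above.

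Among 9 tested activators and tail-binding adaptors 2 rose and 5 fell. The talin genes TLN1 and TLN2, whose proteins link beta tails to actin, fell by 0.43 and 1.0 on the log2 scale, and the kindlin gene FERMT2 fell by 0.33. FERMT1, the epithelial kindlin gene, rose and stood at 82.1 ± 2.04 in shMMP9 and 49.6 ± 1.97 in shControl (log2 fold change 0.72, adjusted p = 8.44e-08, limma). The kindlin genes FERMT1 and FERMT2 therefore changed in opposite directions, while the value of the third, FERMT3, is not given here. Of 13 tested genes for proteins that hold integrins inactive or compete for their tails 3 rose and 8 fell. They included the filamin gene FLNA (-0.72), the tensin gene TNS1 (-1.85) and NISCH, which binds the ITGA5 tail (-0.56), all as log2 fold changes that passed the test.

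Focal adhesion kinases and scaffolds held 50 tested genes, of which 16 rose and 18 fell, with a median of -0.08, close to that of all genes. VCL, the talin-binding scaffold vinculin, stood at 71.1 ± 1.28 in shMMP9 and 184 ± 9.95 in shControl (log2 fold change -1.36, adjusted p = 1.08e-10, limma). The caveolin genes CAV1 and CAV2 fell by 1.15 and 1.21 on the log2 scale, and ELMO1, which helps activate RAC1, rose by 1.26. Of 35 tested genes for the traffic and processing of integrins 14 rose and 13 fell. FURIN, a protease that cleaves several alpha precursors, ITGAV among them, stood at 252 ± 6.61 in shMMP9 and 135 ± 13.0 in shControl (log2 fold change 0.90, adjusted p = 6.07e-08, limma). CANX, the chaperone calnexin, and RAB21, which sorts integrins in endosomes, each rose by 0.61 on the log2 scale, and the tetraspanin gene CD9 rose by 0.76. The leading genes of this list thus all rose, although its counts were even.

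Latent TGF-beta, which pairs of ITGAV with ITGB8 can activate, was represented by 8 tested genes, of which 2 rose and 2 fell. The other 4, TGFB1 among them, did not pass. TGFB2 stood at 0.767 ± 0.300 in shMMP9 and 7.46 ± 0.976 in shControl (log2 fold change -2.27, adjusted p = 3.08e-08, limma), and its latent form has no RGD motif. TGFB3, whose latent form has one, stood at 2.24 ± 0.201 in shMMP9 and 1.01 ± 0.170 in shControl (log2 fold change 0.69, adjusted p = 0.000442, limma). Both are weakly expressed. The binding protein genes LTBP3 and LTBP4 had log2 fold changes of 0.23 and -0.32.

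**Figure D4:**
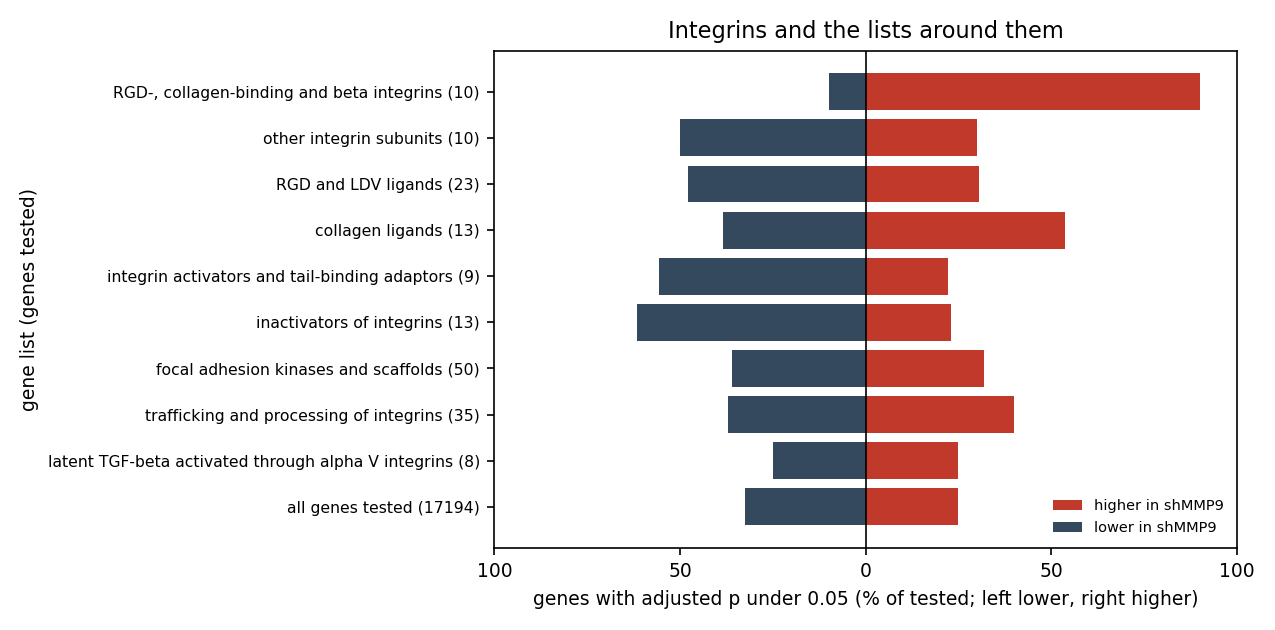
Percent of tested genes with an adjusted p under 0.05 (limma) that were higher in shMMP9 (right of 0) or lower (left), for the integrin genes, 8 lists around them and all 17194 genes tested; the number tested is in brackets. The integrin set has 9 of 10 genes on the right. The lists of activators and of inactivators have more genes on the left (5 of 9 and 8 of 13), as do all genes tested (32.5% lower, 25.0% higher).

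For each integrin gene the tested genes with the most similar 6 values were sought, by the root-mean-square difference of log2 values centred over the 6 libraries. For ITGB3 these were SALL1, a zinc finger transcription factor gene (difference 0.016), and KDR, a VEGF receptor gene (0.018). For ITGA2 they were LRRK2, a kinase gene (0.035), and AP1S2, a clathrin adaptor gene (0.047), and for ITGB8 LRBA (0.035) and GORAB (0.053). For ITGA4 they were NARS, a tRNA synthetase gene, and MYO6, a myosin gene (0.031 each), and for ITGA5 ATXN1L (0.016) and ABHD17B (0.019). With 2 tight groups, this measure mainly picks genes whose group difference has the same size.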

How the data were processed

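Total RNA of 6 A375 libraries was analysed, grouped and numbered by the labels. The submitters' processing notes name STAR 2.6.1d, Partek and the hg38 build. How genes were counted, with which annotation and strand setting, is not given in the sources used here. Each gene has 1 log2 value per library in the table the authors deposited. These values showed log2(scaled count + 1), with a common 75th percentile of 45.3 to 45.4 on the linear scale. Most were whole multiples of the smallest value in their library (64.6 to 67.7%, within 0.01 reads), which gave estimated reads. The rest were fractions, so reads may have been shared out among genes.

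A gene was kept if 3 libraries held 10 reads at the median depth, and all libraries 15 (17194 genes, 1345 removed); all 10 integrin genes passed. limma 3.58.1 in R 4.3.3, with a variance trend, was fitted to the log2 values with Benjamini-Hochberg adjustment over every gene kept. The fit was also tried on simulated data with a fixed spread between libraries. Changes were placed there only in genes with more reads than ITGA10, so calls of weak genes were not checked by it. Replicates differed by more than sampling noise (chi-square per gene 2.51 to 14.1). Positions and exon lengths came from GENCODE release 29 on GRCh38, where all 10 symbols matched. Permutation tests used scipy 1.17.1 and figures matplotlib 3.10.9. Genes named were the 10 integrin genes, MMP9, the 4 or fewer genes of a list that passed with the lowest adjusted p, and the 2 genes most like each integrin gene; others were named after their values were seen. Some genes that this rule takes are not reported here. The members and lists were chosen with earlier results of these data known. Other scalings, pseudocounts, filters, a stricter threshold, limma-voom on estimated reads, no variance trend, a replicate block, each library left out and another gene length were tried as alternatives.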

Additional observations from a re-analysis of the deposited data

How the results depend on the processing

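The 9 rises, the fall of ITGA4 and the 3 changes of 2-fold or more kept their counts within 1.5 times under all 15 alternatives, and no gene changed direction. Of the 10 genes, 9 passed the test under each alternative. ITGA10 did not pass at a threshold of 0.01 (log2 fold change 0.41, adjusted p = 0.0132, limma), and its log2 fold change with a library left out ran from 0.35 to 0.49, with the call lost in 3 of 6 cases. The count of rising genes was 8 in each of these 4 settings. Pseudocounts of 0.25 and 4 gave ITGA10 values of 0.48 and 0.25, and limma-voom gave 0.58. The median of all genes was -0.047 as deposited and 0.003 with median-of-ratios scaling. Correlations of same-numbered deviations were 0.11, -0.24 and 0.01, and those of differently numbered ones ran from -0.26 to 0.32. These values show no sign of pairing by replicate number, but 3 libraries per group cannot exclude a shared batch. With a replicate block 9697 genes were called, against 9888 without, and the integrin counts were the same. Shares moved by more than the spread between replicates when the longest coding transcript replaced the exon length. The differences, in points, were then 11.98 for ITGB3, 2.03 for ITGB8, 1.93 for ITGA1, 5.97 for ITGA2, -5.98 for ITGA4 and -1.82 for ITGA5. No share changed direction. In an order by level computed after seeing the data, the same length put ITGB3 below ITGB1 and ITGA5 in shMMP9. Depth limits ITGA10 most.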
